A study of Bos taurus with 8 samples.

Results

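The stretch of cattle chromosome 10 that carries the T cell receptor alpha and delta genes was examined in RNA-Seq data from 8 tissues. Members were the loci of the deposited expression table that carry an Ensembl transcript identifier and lie wholly inside a fixed window of chromosome 10 on the UMD3.1 assembly. This gave 103 members of 24886 loci with an identifier, the first starting at base 21520757 and the last ending at base 25389277. A further 39 loci of the window have no identifier and are not members. There was 1 library for each of 8 cattle tissues. Nucleated blood cells, called blood cells from here on, and ileum are described in most detail, and the others are rumen, abomasum, intercaruncular uterus, the parenchyma of the mammary gland, frontal cortex and whole testes. The labels give the tissue and no treatment, age or sex. The study describes its tissues as those of a Hereford cow and of her relatives, and its list of the tissues used for methylation gives an adult for blood cells, uterus and testes, a juvenile for ileum, abomasum, frontal cortex and mammary gland, and a fetus for rumen. If the RNA came from animals of the same stages, the tissue and the stage cannot be told apart, and blood cells and ileum differ in both. With 1 library per tissue there is no replicate error and no test, so a difference between libraries includes any difference between animals and has no replicate check.

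T cells recognise antigen with a receptor made of an alpha and a beta chain or of a gamma and a delta chain. The alpha and delta genes share one stretch of chromosome, in which the delta segments lie between the variable and the joining segments of the alpha chain. Variable, diversity and joining segments are cut and joined in the thymus, and the joined exon is spliced to a constant region, so a mature T cell transcribes the constant region together with the few variable segments it joined. Cattle carry many gamma-delta T cells in blood and an enlarged set of variable segments of the delta chain. The ileum holds T cells within its epithelium and in Peyer's patches. A variable segment is a short gene of a pair of exons that has many near-identical copies, so reads may be shared between copies and the level of any single segment is uncertain.

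The values are FPKM, the number of fragments scaled to the length of the transcript in kilobases and to the size of the library, as the authors deposited them. The position given for a member is the span of all overlapping transcripts that the authors' software handled together, and several members can share one span. Members were divided by that span into 44 short loci, under 1500 bases, and 59 long loci. The longest short locus, of 1389 bases, and the shortest long locus, of 1586 bases, were both listed at 0 in all 8 libraries. A member that shares a wide span counts as long by this rule even if its own transcript is short. Of the 59 long members, 38 share their span with another locus, and the widest span, bases 22106909 to 23304334, holds 20 members. It divides the rest of the members into 32 that lie before it and 51 that lie after it, a division made after the positions had been seen.

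None of the 113 transcript identifiers of the members is paired with a gene symbol in the tables used here, so members are described by position, and no row is assigned to a named gene. The presence of T cells was not checked against markers such as CD3D and CD3E, nor other blood or gut cells against theirs. RefSeq's gene table for another assembly, ARS-UCD2.0, lists 50 variable segments and 2 constant regions on chromosome 10. It places DAD1, a subunit of the enzyme that attaches sugars to new proteins, and ABHD4, a lipid hydrolase, beside the T cell receptor entries.

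Depth was recovered from the FPKM of very small loci and ranged from 6082000 scaled reads in mammary gland to 15625000 in rumen, with 12078000 in blood cells and 7555000 in ileum. A single read on a transcript of 500 bases was worth 0.311 FPKM in blood cells and 0.498 FPKM in ileum. The limit that a count of 0 allows, 3 reads, was 0.934 FPKM in blood cells and 1.49 FPKM in ileum at that length, and it covers counting error only. Blood cells were therefore the more sensitive library of the pair for short members.

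From the widest locus onward, summed levels were highest in blood cells and next in ileum. Of these 71 members, 36 reached 1 FPKM in blood cells and 17 in ileum. By size, 14 of 36 short ones (38.9%) reached it in blood cells and 6 (16.7%) in ileum, where 4.94% and 5.18% of all short named loci did. Of the 35 long ones, 22 (62.9%) reached it in blood cells and 11 (31.4%) in ileum, near and below the 54.1% and 63.8% of all long named loci. Of the 35, 31 share their span with another locus, so their own transcripts may be short and this background may not fit them. The summed FPKM of the 71 was 970.3 in blood cells and 245 in ileum, a ratio of 3.96. The sum was 117 in mammary gland, 36.6 in whole testes, 26.6 in abomasum, 24.8 in uterus, 8.32 in rumen and 3.08 in frontal cortex. Blood cells were higher than ileum, by any amount, in 45 of the 71 members and ileum higher in 5, and 18 members were listed at 0 in every library. Among the 36 short ones, blood cells were higher in 17 (47.2%) and ileum in 4 (11.1%), where 5.87% and 5.07% of all short named loci were. Among the 35 long ones, blood cells were higher in 28 (80%) and ileum in 1 (2.86%), where 37.6% and 41.1% of all long named loci were. In whole tissue or mixed cells, fewer T cells and less RNA per T cell cannot be told apart.

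**Figure D1:**
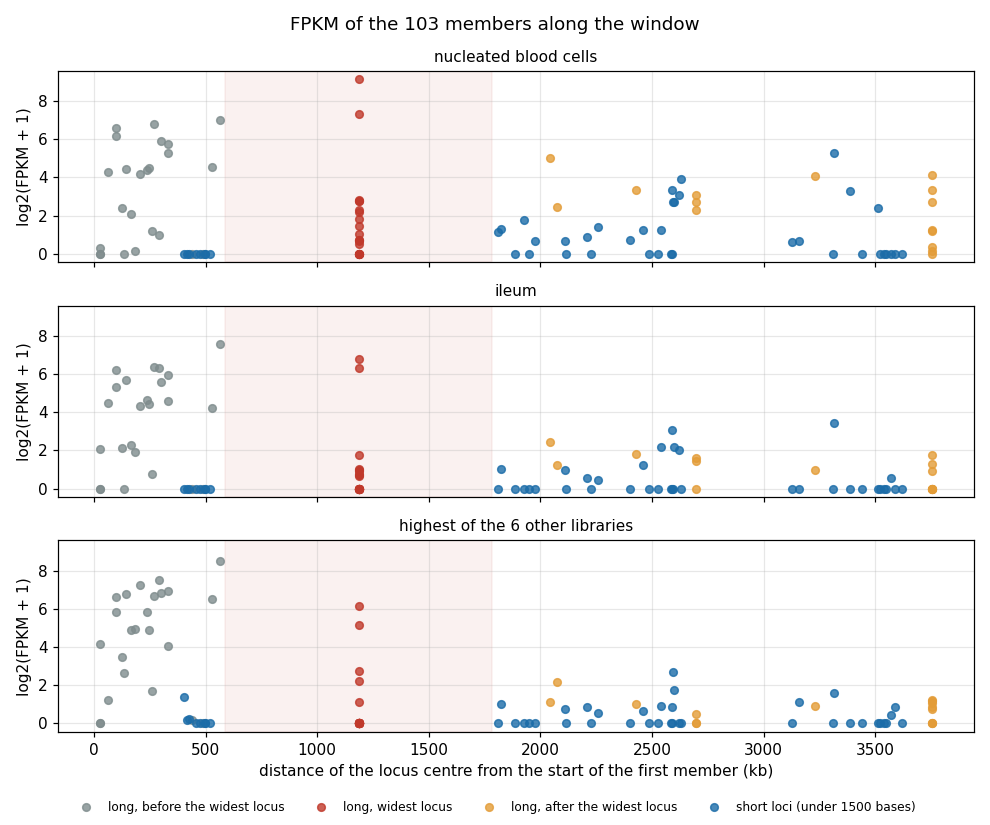
log2(FPKM + 1) of each of the 103 members (y axis) against the distance in kb of the centre of its span from the start of the first member (x axis), in blood cells, in ileum and as the highest of the 6 other libraries. Each point is 1 member, coloured by class, and the shaded band is the widest locus, whose 20 members share 1 centre; from the band onward the points stand highest in the blood cell panel.

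Within the widest locus, a pair of members held 95.7% of the summed FPKM in blood cells and 96.4% in ileum, and the least, 71.5%, in whole testes. A member of 5 transcripts, the first of them ENSBTAT00000000555, was at 560 FPKM in blood cells and 109 FPKM in ileum. In the other libraries it was at 34.3 FPKM in mammary gland, 10.5 in abomasum, 7.69 in whole testes, 4.47 in uterus, 3.42 in rumen and 0.772 in frontal cortex. Blood cells stood above every other library, 5.15 times ileum and 16.3 times mammary gland. It made up 74.4% of the summed FPKM of the widest locus in blood cells and 55.6% in ileum, and it ranked 168 among the 24886 named loci in blood cells and 727 in ileum.

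A member of 2 transcripts in the same span had a flatter course across the tissues. It was at 160 FPKM in blood cells, 79.7 in ileum and 69.4 in mammary gland. In abomasum it was at 15.3 FPKM, in uterus at 14.1, in whole testes at 6.90, in rumen at 2.73 and in frontal cortex at 0.142. Blood cells were again the highest library, but only 2.01 times ileum and 2.30 times mammary gland. The member of 5 transcripts was 3.50 times the member of 2 in blood cells and 1.37 times in ileum, whereas in mammary gland it was 0.495 times and in uterus 0.317 times. The order of the pair therefore differed between libraries, as it also did in abomasum, where the ratio was 0.686. In the libraries with low levels of both, whole testes, rumen and frontal cortex, the ratio was 1.11, 1.25 and 5.45. How the authors' software divided reads between the members of a span of 1197426 bases is not known, and what it adds to these ratios was not tested.

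**Figure D2:**
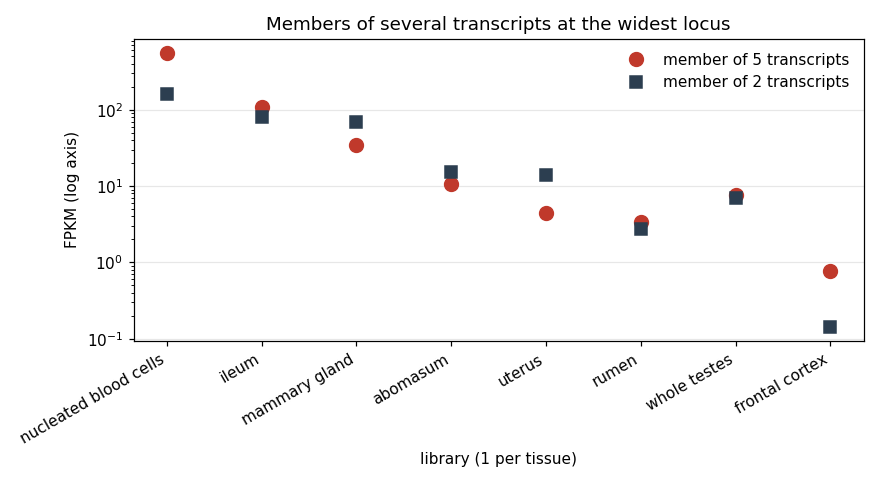
FPKM (log axis) of the members of 5 and of 2 transcripts at the widest locus in each of the 8 libraries, 1 library per tissue, with no error bars because there are no replicates. The member of 5 transcripts (circles) lies above the member of 2 (squares) in blood cells, ileum, rumen, whole testes and frontal cortex and below it in mammary gland, abomasum and uterus.

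The other 18 members of the widest locus name 1 transcript each and were low. In blood cells 12 were above 0 and 8 reached 1 FPKM, with a highest value of 6.09 FPKM and a sum of 32.7. In ileum 7 were above 0 and 2 reached 1 FPKM, with a highest value of 2.40 and a sum of 7.14. Of all long named loci, 54.1% reached 1 FPKM in blood cells and 63.8% in ileum, and of all short ones 4.94% and 5.18%. The 18 are long only by their shared span, so which background fits them is not known. Frontal cortex, abomasum and rumen listed all 18 at 0, and 5 of the 18 were at 0 in every library. A few departed from the order of blood cells over ileum over the rest. One was at 5.8 FPKM in whole testes against 1.06 in blood cells and 0.615 in ileum. Another was at 3.68 FPKM in mammary gland against 3.61 in blood cells and 0.987 in ileum. One was seen in ileum alone, at 1.01 FPKM, and one was at 1.19 FPKM in uterus against 0.677 in blood cells and 0.569 in ileum. The member seen in blood cells alone with the highest level had the third largest blood to ileum fold of the long members on the scale of FPKM + 1, with 5.74 FPKM in blood cells. The summed FPKM of the widest locus was 753 in blood cells and 196 in ileum, a ratio of 3.85, which was 2.22 without the member of 5 transcripts.

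The short members have the size of variable segments: 31 of the 44 span from 400 to under 700 bases, and the median span was 561 bases. In blood cells 14 of the 44 (31.8%) reached 1 FPKM, where 4.94% of all 4617 short named loci did. In ileum 6 of 44 (13.6%) did, against 5.18% of all short named loci. Blood cells were the highest of the 8 libraries, at 1 FPKM or more, for 11 members (25%) against 1.97% of all short loci, and ileum for 2 (4.55%) against 1.02%. On the scale of FPKM + 1, 8 members (18.2%) were in blood cells at least 2-fold over the highest of the 6 libraries other than blood cells and ileum, against 1.21% of all short loci. In ileum 4 members (9.09%) were, against 0.78%. Folds on this scale understate differences between low levels.

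Of the short members, 6 (13.6%) reached 1 FPKM in both blood cells and ileum, 8 (18.2%) in blood cells and not in ileum, and 0 in ileum and not in blood cells. Of all short named loci, 3.57% did so in both, 1.36% in blood cells and not in ileum, and 1.6% in ileum and not in blood cells. A level of 1 FPKM is under the 3-read limit of ileum at 500 bases, so such members may be expressed in ileum below what this depth can show. Of the 44 members, 18 (40.9%) were listed at 0 in all 8 libraries, against 78.4% of all short named loci. Above 0 in blood cells alone were 8 (18.2%), against 0.996%, and in blood cells and ileum alone 2 (4.55%), against 0.26%. The 2 libraries held 87.1% of the FPKM summed over the short members and all libraries. By library the sum was 106 FPKM in blood cells, 31.8 in ileum, 9.82 in whole testes, 4.55 in mammary gland, 3.34 in uterus, 1.17 in rumen, 0.790 in frontal cortex and 0.692 in abomasum.

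**Figure D3:**
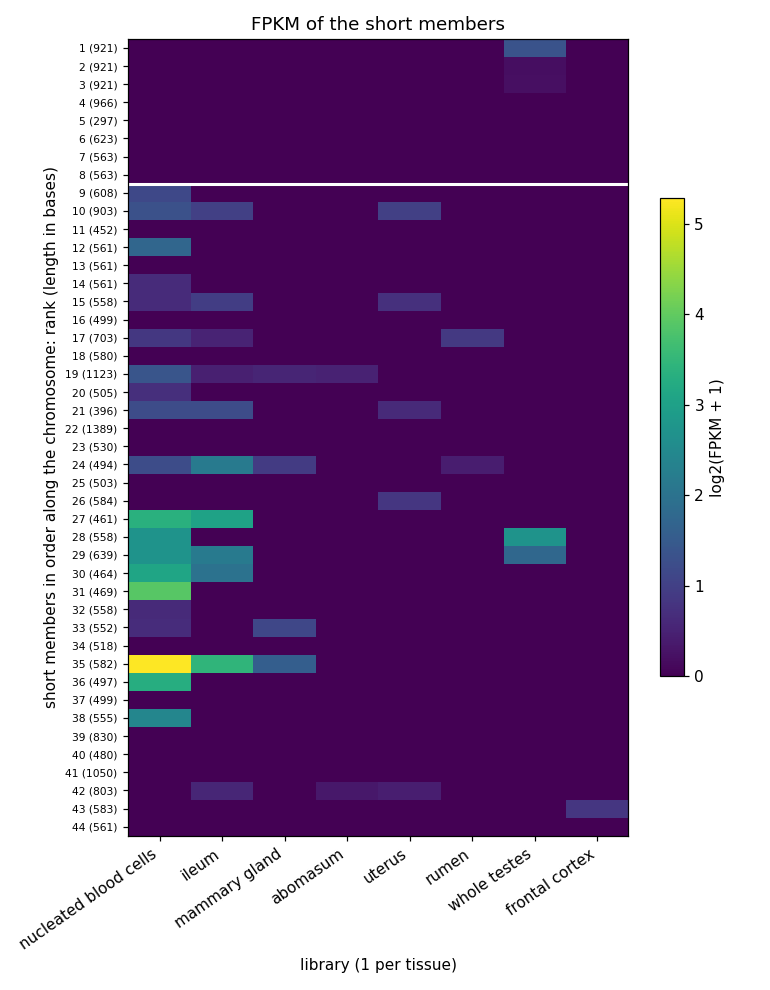
log2(FPKM + 1) (colour) of the 44 short members, in order along the chromosome with their length in bases (rows), in the 8 libraries (columns). The white line parts the 8 members before the widest locus, which are dark in blood cells and ileum, from the 36 after it, where the blood cell column holds 20 members above 0 and the ileum column 11.

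These levels rest on few reads. Taken over the whole span of a member, and so at most, the 20 short members above 0 in blood cells had a median of 10.2 reads and 400 reads in all, and 6 of them had no more than 3 reads. In ileum the 11 members above 0 had a median of 4.81 reads and 75.6 reads in all, and 5 had no more than 3. The 6 short members seen in blood cells under 1 FPKM lay between 0.546 and 0.821 FPKM, from at most 2.10 to 4.49 reads.

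The highest short member, ENSBTAT00000064523, spans 582 bases from 24838412 to 24838993. It was at 37.9 FPKM in blood cells, from at most 156 reads, and at 9.89 FPKM in ileum, from at most 25.5 reads. Mammary gland was at 2.0 FPKM and the other 5 libraries were listed at 0. This single member made up 35.8% of the summed FPKM of short members in blood cells and 31.1% in ileum. The blood to ileum ratio of the summed FPKM was 3.32 with it and 3.1 without it.

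A cluster of 7 short members within 44649 bases, from 24105131 to 24149779, held 39.5% of the short members' summed FPKM in blood cells and 43.3% in ileum. The cluster was chosen after its values were seen. Its members did not share one course. The member at 24149311 to 24149779 was at 14.0 FPKM in blood cells, from at most 40.1 reads, and was listed at 0 in every other library. The member at 24111827 to 24112287 was at 9.15 FPKM in blood cells and 7.28 FPKM in ileum and was at 0 elsewhere. The member at 24142588 to 24143051 was at 7.60 FPKM in blood cells and 2.99 in ileum, again with 0 elsewhere.

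Whole testes also had signal in the cluster. The member at 24115721 to 24116278 was at 5.56 FPKM in whole testes and 5.55 FPKM in blood cells, and ileum and the other 5 libraries were listed at 0. The member at 24120162 to 24120800 was at 5.55 FPKM in blood cells, 3.53 in ileum and 2.39 in whole testes. Of the other 2 members of the cluster, one was listed at 0 throughout and the other was seen only in uterus, at 0.783 FPKM.

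Outside the cluster, the member at 24909812 to 24910308 was seen in blood cells alone, at 8.76 FPKM from at most 27.9 reads. Ileum was the higher library in 4 short members, none of them 2-fold over blood cells on the scale of FPKM + 1. The clearest was ENSBTAT00000007799, at 24062422 to 24062915, with 3.55 FPKM in ileum, 1.34 in blood cells, 0.896 in mammary gland and 0.343 in rumen. These values rest on at most 6.97 reads in ileum and 4.22 in blood cells, too few to order both libraries. The member at 23978360 to 23978755 was at 1.35 FPKM in ileum and 1.33 in blood cells, from at most 1.74 and 2.73 reads. In the last part of the window, past base 25000000, 7 short members lie, of which 1 reached 1 FPKM in blood cells and 4 were listed at 0 in all 8 libraries. Of all short named loci, 4.94% reached 1 FPKM in blood cells and 78.4% were listed at 0 in all 8.

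The 8 short members before the widest locus differed from the 36 after it. None was above 0 in blood cells or ileum, 3 were above 0 in whole testes, and 5 were listed at 0 in all 8 libraries. Of all short named loci, 78.4% were listed at 0 in all 8, and 4.94% and 5.18% reached 1 FPKM in blood cells and ileum. The lack of signal in blood cells and ileum therefore does not set the 8 apart from short loci in general. Of the 8, 4 span from 900 to under 1000 bases, longer than most short members after the widest locus, and all 4 lengths are multiples of 3, as are 21 of the 44 short lengths. All short members detected in blood cells and ileum therefore lie after the widest locus.

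The long members after the widest locus were also higher in blood cells than in ileum. These 15 members summed to 112 FPKM in blood cells and 17.5 FPKM in ileum, a ratio of 6.39, and to between 0.0301 in abomasum and 8.28 in whole testes elsewhere. Blood cells reached 1 FPKM in 12 (80%), against 54.1% of all long named loci. Blood cells were above ileum in 14 and ileum was above blood cells in none, where 37.6% and 41.1% of all long named loci were. Ileum reached 1 FPKM in 7 (46.7%), below the 63.8% of all long named loci. A locus of 28330 bases from 23549339 to 23577668 was at 31.1 FPKM in blood cells, 4.34 in ileum, 1.15 in mammary gland and 1.0 in rumen, with 0 elsewhere. A locus of 30633 bases from 24734912 to 24765544 was at 15.8 FPKM in blood cells and 0.961 in ileum, and at most 0.859 in the other libraries, the value of mammary gland. On the scale of FPKM + 1 its blood level was 8.58 times that of ileum.

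The widest of these spans, of 227991 bases from 25161287 to 25389277, holds 8 members. Its member of 4 transcripts was at 16.6 FPKM in blood cells, 2.35 in ileum, 1.12 in frontal cortex and 0.366 in whole testes, with 0 in the rest. A further member was at 9.25 FPKM in blood cells and 0.806 in whole testes, and ileum and the other 5 libraries were listed at 0. In 1 member of this span the only signal was in whole testes, at 1.35 FPKM. In the span of 127263 bases from 24156616 to 24283878, 3 members were at 3.91 to 7.40 FPKM in blood cells, of which 2 were seen in ileum, at 1.76 and 2.05.

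**Figure D4:**
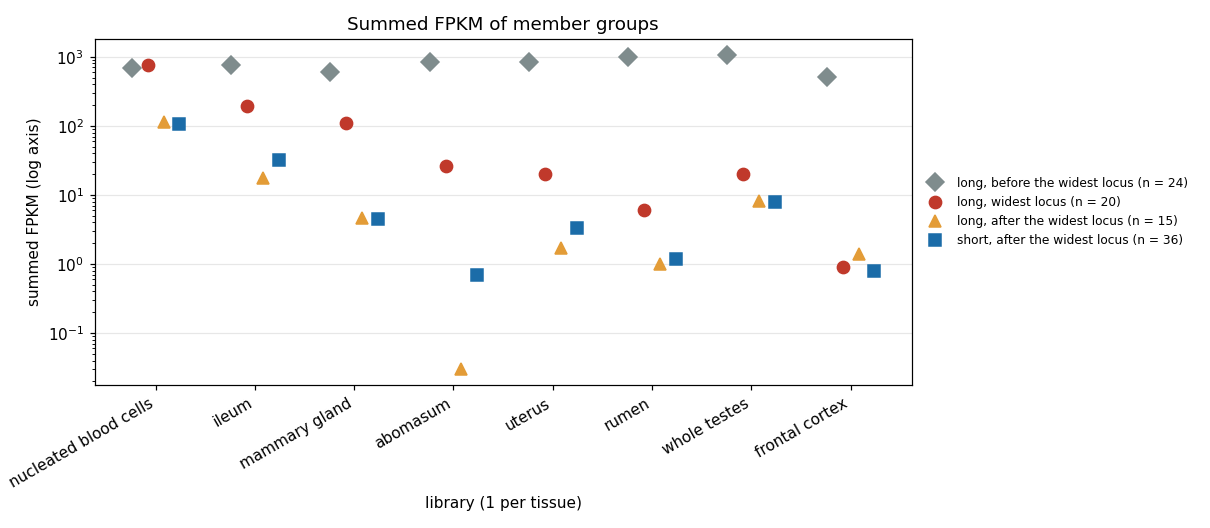
Summed FPKM (log axis) of 4 groups of members in each of the 8 libraries, 1 per tissue, without error bars. The 3 groups from the widest locus onward are highest in blood cells (753, 112 and 106 FPKM) and next in ileum, while the 24 long members before it stay within one order of magnitude in all libraries.

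The 24 long members before the widest locus showed no lead of blood cells. Their summed FPKM was 684 in blood cells, 757 in ileum and 1073 in whole testes, and 14 of the 24 (58.3%) reached 1 FPKM in all 8 libraries, against 43.6% of all long named loci. Blood cells were the highest library for 3 of them (12.5%), and whole testes for 6 (25%), at 1 FPKM or more, against 12.6% and 25.6% of all long named loci. On the scale of FPKM + 1, 0 were 2-fold higher in blood cells than in ileum, against 9.05% of all long named loci, and 4 (16.7%) were 2-fold higher in ileum, against 16.1%. The share at 1 FPKM in all 8 libraries lay above the background and the share 2-fold higher in blood cells below it. The other shares were close to it. The member at 22073358 to 22095132, the last before the widest locus, was at 129 FPKM in blood cells, 187 in ileum and 358 in whole testes, and it was the highest member of the window in every library except blood cells. Its lowest value, 125 FPKM, was in frontal cortex.

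Some of these members were high in blood cells and in several other libraries. The member at 21783789 to 21792690 was at 110 FPKM in blood cells, 99.7 in abomasum, 82.7 in rumen and 82.5 in ileum. It was lower in mammary gland at 58.8 FPKM, uterus at 38.0, whole testes at 21.5 and frontal cortex at 17.5. Both members at 21596105 to 21637484 were well expressed in all tissues, one at 95.4 FPKM in blood cells and 97.8 in uterus, the other at 69.9 in blood cells and 55.6 in whole testes. Of 2 members at 21826179 to 21879576, one was at 38.4 FPKM in blood cells and 23.2 in ileum, and at most 15.4 in the other libraries, the value of abomasum. A locus of 1703 bases from 21580341 to 21582043 was, like many members further on, highest in ileum and blood cells, with 21.6 FPKM in ileum, 18.8 in blood cells and at most 1.32 in the other libraries, the value of abomasum.

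Others were low in blood cells and higher elsewhere. ENSBTAT00000019744, at 21804378 to 21814726, was at 0.983 FPKM in blood cells against 79.3 in ileum and 180 in uterus. On the scale of FPKM + 1, ileum was 40.5 times blood cells. Of 3 members at 21520757 to 21573888, 2 were listed at 0 in all libraries and the other was at 0.243 FPKM in blood cells, 3.20 in ileum and 16.9 in frontal cortex, and the member at 21698956 to 21708821 was at 0.111 in blood cells, 2.70 in ileum and 29.8 in rumen. The lead of blood cells and ileum was thus not shared by all 103 members of the window.

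**Figure D5:**
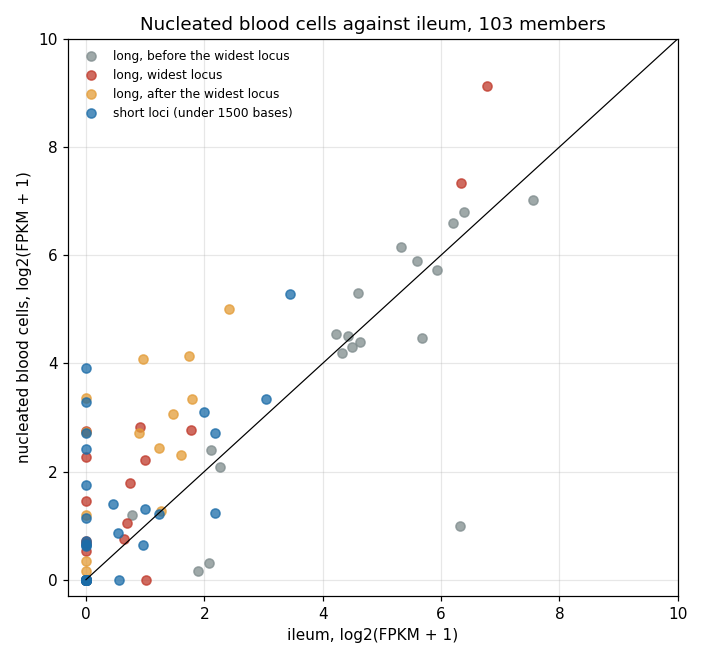
log2(FPKM + 1) in blood cells (y axis) against ileum (x axis) for the 103 members, 1 point each, coloured by class, with the line of equal levels. Of the 71 members from the widest locus onward, 45 lie above the line and 5 below it, while the grey points before it lie on either side (9 above and 10 below).

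Over all 59 long members, the counts stood beside the background as follows. The background is of long spans, and 38 of the 59 share theirs, so it may not fit their own transcripts. In blood cells 38 long members (64.4%) reached 1 FPKM, against 54.1% of all 20269 long named loci, and in ileum 29 (49.2%) did, against 63.8%. Blood cells were the highest library for 23 (39%) against 12.6%, and ileum for 2 (3.39%) against 3.73%. In blood cells 21 (35.6%) were 2-fold over the highest of the 6 other libraries against 4.94%, and in ileum 8 (13.6%) against 2.71%. Of the 21, 2 lie before the widest locus, 8 in it and 11 after it. The ratio of summed FPKM of blood cells to ileum over all long members was 1.60. It was 4.06 without the members before the widest locus, and 0.937 without the members of several transcripts or with a repeated identifier, 10 long members in all, among them the pair that leads the widest locus. Among the members that this leaves, the ratio was 6.27 in the widest locus (16 members), 4.96 after it (10 members) and 0.859 before it.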

How the data were processed

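RNA-Seq was measured in 8 cattle tissues, 1 library each, grouped by the tissue label. Per the labels, total RNA was extracted with Trizol and libraries were made with a TruSeq kit. Strand was not stated, so sense and antisense transcripts cannot be told apart. The authors aligned single-end reads to UMD3.1 with TopHat2 2.0.13 and ran Cufflinks, and deposited 1 table of FPKM for 36801 loci in 28 pairs of libraries. The authors' columns of log2 fold change, test statistic, p-value and q-value were not used. The number of columns without a sample was 0.

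The members and lists were chosen with earlier results of these data known. Spans were taken from the locus column and written counting from 1. Of the members, 7 name several transcripts and 4 carry an identifier that stands at more than 1 locus, and no member had a failed estimate. A member was counted as detected at an FPKM of 1, and folds used a pseudocount of 1. Depth was recovered from loci without an identifier of 88 to 130 bases with a fragment length of 200 bases (SD 80, at least 87), and 97.7% to 100% of the loci gave whole reads within 0.03. Cufflinks scales libraries to each other, so this depth differs from a count of mapped reads. Members named one by one were the 6 short and 6 long with the highest FPKM in blood cells and in ileum, the 3 of each with the largest fold of FPKM + 1 either way among those at 1 FPKM or more in blood cells or ileum, and the highest member of each other library. Further members were named after their values were seen, to describe each span. Scripts used Python 3.11.15, pandas 2.3.3, NumPy 2.4.6, SciPy 1.17.1 and matplotlib 3.10.9, and were tested on simulated data. Alternatives covered the thresholds, pseudocount, length limit, scaling, repeated or several transcripts and single libraries.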

Additional observations from a re-analysis of the deposited data

Results flagged for a closer look

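The 39 loci of the window without an identifier take no part in the comparisons of the report, yet they held signal. Reads were computed for the 30 of them under 1500 bases. Taken as single transcripts over their span, 21 of the 30 had more than 3 reads in blood cells and 8 had more than 3 in ileum. Of the same 30, the count was 8 in whole testes, 6 in rumen, 4 in mammary gland, 3 in abomasum, 1 in uterus and 1 in frontal cortex. No share over all loci without an identifier stands beside these read counts. Of the 27 that lie after the widest locus and span 200 bases or more, 24 (88.9%) reached 1 FPKM in blood cells and 23 (85.2%) had their highest level there, where 25.8% and 10.9% of all 10477 loci of that length without an identifier did. All but 74 of the 10477 reach 1 FPKM in at least 1 library. The 27 had a summed FPKM of 247 in blood cells, 30.7 in ileum, 12.4 in whole testes, 10 in mammary gland and 8.85 in uterus. A locus of 92 bases at 24293123 to 24293214 had an FPKM of 18692 in abomasum, which corresponds to 10 reads because so short a locus gives a very high FPKM per read (exact 95% Poisson interval 4.8 to 18.4, counting error only).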

How the results depend on the processing

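No paired analysis was possible because, with 1 library per tissue, no test was run. Of 128 alternative values of 12 counts and ratios, 109 stayed within 1.5 times the reported value, among them all values with another library left out, another length limit, upper-quartile scaling or the highest member left out. At a threshold of 0.1 FPKM, 11 short members were detected in ileum. At 5 FPKM, short members detected fell to 7 in blood cells and 2 in ileum, those highest in blood cells to 6, those past 2-fold to 5 in blood cells and 2 in ileum, and long members to 16 detected and 2 past 2-fold in ileum. A pseudocount of 0.1, with the threshold of 1 FPKM also dropped, put 14 short members past 2-fold in blood cells. What each of these changes adds was not separated. At 5-fold, 11 long members passed in blood cells, and 1 short and 1 long in ileum. Without members of several transcripts or repeated identifiers, 15 long members were highest in blood cells, 13 were past 2-fold in blood cells and 4 in ileum, and the long blood to ileum ratio turned to 0.937. This setting leaves out 10 long members, and the ratio of those left was 6.27 in the widest locus, 4.96 after it and 0.859 before it. Without the members before the widest locus, an alternative chosen after seeing the data, 22 long members were detected in blood cells and 11 in ileum and the ratio was 4.06. The 3-read limit at 500 bases was 1.49 FPKM in ileum and 0.934 FPKM in blood cells, so depth limits low members more in ileum.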
